A study of Mus musculus with 32 samples.

Results

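Glucocorticoid signaling was followed in whole mouse bladders through 8 genes: the glucocorticoid receptor gene Nr3c1, the mineralocorticoid receptor gene Nr3c2, the steroid-activating enzyme gene Hsd11b1, and the glucocorticoid-induced genes Fkbp5, Tsc22d3, Zbtb16, Sgk1 and Klf9. The genes were chosen by name for their roles in the pathway, with earlier results of these data known, and make up 8 of the 32285 genes in the count table. Total RNA was sequenced from 32 single bladders of female C57BL/6 mice. Young mice were 2 months old (n = 6), middle-aged mice 10 months (n = 5) and untreated old mice 26 months (n = 6), and none of these had been gavaged. Water-treated (n = 5), vehicle-treated (n = 4) and D+Q-treated (n = 6) mice were also 26 months old and had been gavaged by mouth on 3 days in a row each month from 21 to 26 months of age. The vehicle was a mixture of Phosal 50 PG, a polyethylene glycol and ethanol. D+Q was dasatinib at 5 mg/kg/day with quercetin at 50 mg/kg/day, dissolved in that vehicle. The methods give a rest of 5 days between the last gavage of vehicle or D+Q and use, so the bladders were not collected within hours of a gavage in those groups, and time of day at collection was not given in the sources used here.

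Glucocorticoids such as corticosterone, the main glucocorticoid of mice, enter cells and bind the receptor encoded by Nr3c1, which is held in the cytoplasm by heat shock protein 90 and its partners. The bound receptor moves to the nucleus and raises or lowers the transcription of target genes. Handling and gavage are stressors that can raise corticosterone, and several targets, among them Fkbp5 and Tsc22d3, are widely used as a read-out of glucocorticoid exposure in tissue. The enzyme encoded by Hsd11b1 regenerates active hormone inside cells, and the mineralocorticoid receptor encoded by Nr3c2 also binds corticosterone.

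The genes lie on different chromosomes, and reads were counted over their exons. In the mm10 coordinates of the deposited table, Nr3c1 (ENSMUSG00000024431) is at chr18:39410545-39519421 on the minus strand and Nr3c2 (ENSMUSG00000031618) at chr8:76899442-77245012 on the plus strand. Hsd11b1 (ENSMUSG00000016194) is at chr1:193221634-193264075, Fkbp5 (ENSMUSG00000024222) at chr17:28399094-28517527, Tsc22d3 (ENSMUSG00000031431) at chrX:140539528-140600659 and Zbtb16 (ENSMUSG00000066687) at chr9:48654297-48836222, all on the minus strand. Sgk1 (ENSMUSG00000019970) is at chr10:21882184-21999903 and Klf9 (ENSMUSG00000033863) at chr19:23141226-23168134, both on the plus strand.

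In brief, no member passed the test after any gavage, where 1% of all genes did after water and 0% after vehicle or D+Q. Of the 8 members, 5 were higher in untreated old bladders when compared with middle-aged ones. In that comparison 24% of all genes passed the test, and 13% of all genes passed it as higher. Fkbp5, which encodes a co-chaperone that lowers the hormone affinity of the receptor, rose 2.31-fold with late age. Its level in all 21 old bladders, gavaged or not, lay above that of all 11 younger ones, as did that of 0.669% of 18093 genes. The 2 receptor genes did not pass the test at either age step.

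Summed counts per bladder ran from 15088372 to 52650259 with a median of 34074787, and the lowest count of a member in any bladder was 373 (Nr3c2), far above the 3 counts taken as the floor of detection. Smooth muscle and urothelial markers, which define the bladder wall and its lining, were detected in every group, with summed levels of 24456 to 39420 and 3669 to 4888 CPM (counts scaled to a common library size) per bladder. The tissue was whole, so a change in the number of cells of a type and a change of RNA per cell cannot be told apart. The labels and methods give no sequencing batch, so no values within batches could be computed, and the replicate bladders are taken to be separate mice.

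Promoter sequence is shown for 3 induced genes, because their response to hormone is known to run through receptor binding at glucocorticoid response elements. The windows span 250 bases before to 50 bases after a RefSeq transcription start (GRCm38.p6, the same coordinates as mm10). The 13 member windows used belong to 6 of the members: Sgk1, Tsc22d3, Fkbp5, Klf9, Hsd11b1 and Nr3c2. Nr3c1 was left out of the member windows, and none was used for Zbtb16. The searched palindrome, AGAACA followed by any 3 bases and then by TGTTCT, read on both strands, was found in 1 of the 6 Sgk1 windows and in no other member window, against 3 of 32851 windows (0.00913%) of all genes. A single arm of it, AGAACA, which reads TGTTCT on the opposite strand, was found in 4 of the 13 member windows, against 19.0% of all windows. Capitals mark these matches, and single arms inside a whole palindrome were counted too. Each name is followed by the window's position and strand, read 5′ to 3′.
Sgk1, chr10:21993640-21993939, plus strand, with the whole palindrome starting 189 bases before the start site: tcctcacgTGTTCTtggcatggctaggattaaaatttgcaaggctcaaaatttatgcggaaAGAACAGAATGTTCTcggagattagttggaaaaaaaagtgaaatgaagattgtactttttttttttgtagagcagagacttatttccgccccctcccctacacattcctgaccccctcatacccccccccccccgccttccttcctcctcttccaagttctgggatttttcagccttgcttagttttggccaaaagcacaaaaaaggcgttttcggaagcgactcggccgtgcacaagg
Tsc22d3, chrX:140600473-140600772, minus strand, with 1 single arm: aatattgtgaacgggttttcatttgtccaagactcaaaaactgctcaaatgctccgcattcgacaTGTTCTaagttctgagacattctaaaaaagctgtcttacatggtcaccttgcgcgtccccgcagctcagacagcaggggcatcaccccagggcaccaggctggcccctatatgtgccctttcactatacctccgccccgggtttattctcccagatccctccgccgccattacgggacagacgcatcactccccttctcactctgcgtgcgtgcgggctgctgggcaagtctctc
Fkbp5, chr17:28486100-28486399, minus strand, with no match: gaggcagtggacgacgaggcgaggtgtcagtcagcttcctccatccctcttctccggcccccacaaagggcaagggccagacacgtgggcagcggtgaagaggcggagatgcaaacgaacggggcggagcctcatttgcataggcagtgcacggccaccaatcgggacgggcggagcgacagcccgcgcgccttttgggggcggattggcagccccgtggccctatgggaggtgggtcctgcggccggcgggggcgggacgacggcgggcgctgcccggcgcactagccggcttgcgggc
This Sgk1 window holds the letters of the palindrome in full, this Tsc22d3 window, the only 1 of 3 with a match, holds 1 arm, and the single Fkbp5 window holds neither. A match is only a run of letters, and elements outside these windows were not searched.

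Levels of the 8 genes relative to each other were compared per length, in TPM (transcript counts per length, scaled to a common sum) from the counts and each gene's summed exon length. Klf9, a transcription factor gene induced by glucocorticoids and thyroid hormone, was the highest with a median of 133 TPM over the 32 bladders and was first in 31 of them. Tsc22d3, which encodes the anti-inflammatory protein GILZ, followed with 77.9 TPM, and then came Nr3c1 with 47.3 TPM, Hsd11b1 with 34.1 TPM, Zbtb16 with 32.1 TPM, Fkbp5 with 25.4 TPM, Sgk1 with 23.5 TPM and Nr3c2 with 15.9 TPM. Nr3c1 exceeded Nr3c2 in all 32 bladders, with a TPM ratio of 2.41 to 7.94. The gene in last place changed with age: Fkbp5 was the lowest of the 8 in 9 of the 11 young and middle-aged bladders and in none of the 21 old ones, where Nr3c2 was always last. Hsd11b2, whose enzyme inactivates the hormone in mineralocorticoid target tissue, was barely present, at 3 to 40 counts and a median of 0.789 TPM.

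**Figure D1:**
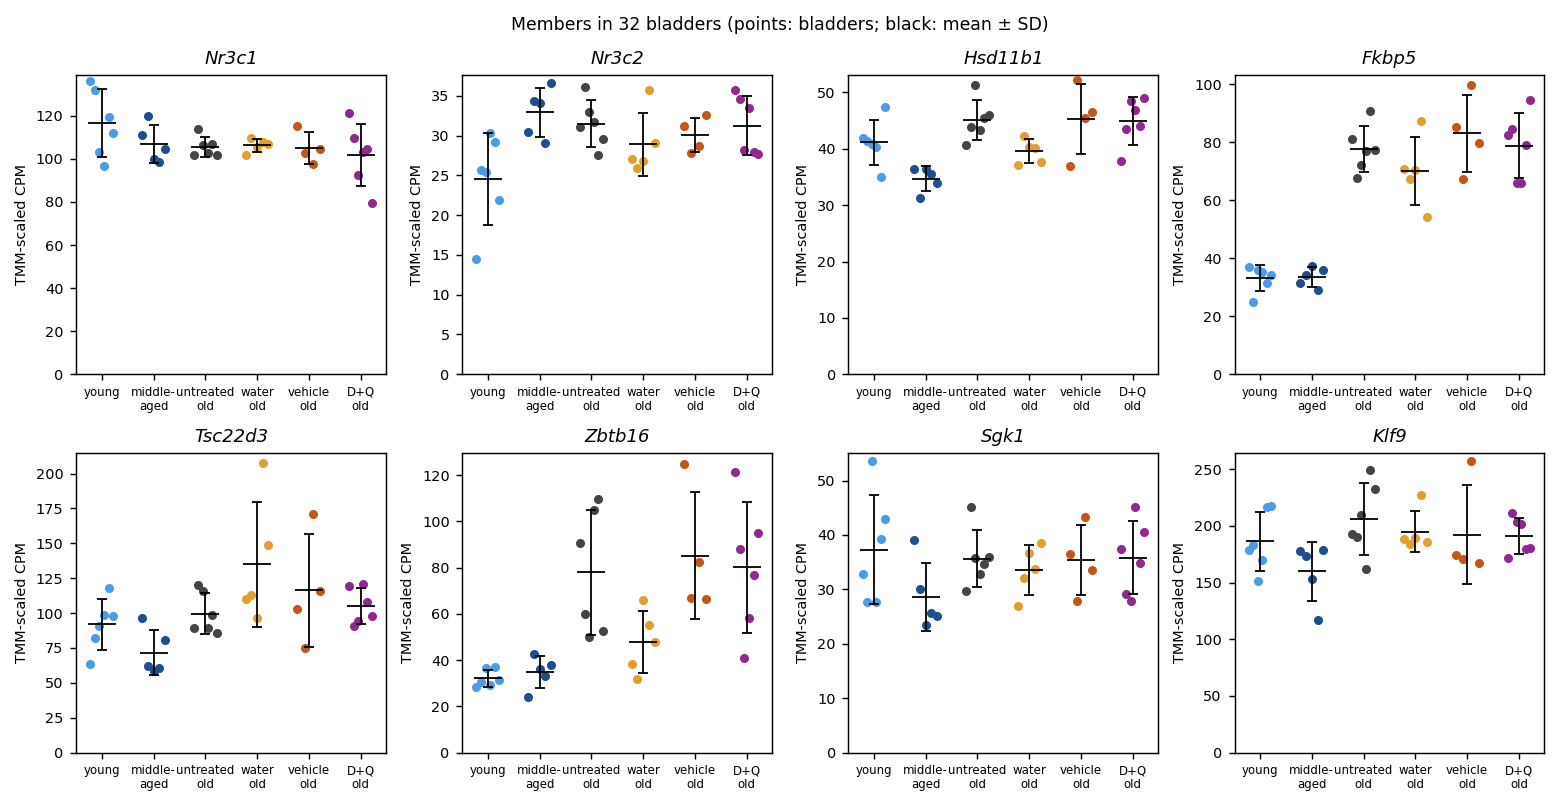
Expression of the 8 genes in CPM scaled by the trimmed mean of M values (TMM), with 1 panel per gene with a y axis from 0. Each point is a bladder, colored by group, and black bars give the group mean ± SD (n = 4 to 6). Fkbp5 sits between 24.9 and 37.3 CPM in the younger bladders and between 54.2 and 99.7 CPM in the old ones, and Nr3c1 shows no such step.

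The question of age was addressed first, since the gavaged mice were all old. Group levels are given below in TMM-scaled CPM, and differences as log2 fold changes with SE from edgeR's quasi-likelihood test, with p adjusted over all genes tested by the Benjamini-Hochberg method and called under 0.05. All 8 members passed the filter on low counts in every comparison. Between untreated old and middle-aged bladders, 5 of the 8 were called, all higher, while 24% of the 17156 genes tested were called and 13% were called higher. The median log2 fold change of the 8 was 0.37, against a median of -0.00 over all genes. Between middle-aged and young bladders, 1 of the 8 was called, with 10.8% of 16754 genes called either way and 5.85% called lower. Both comparisons share the 5 middle-aged bladders.

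The receptor genes came first. Nr3c1 had 117 ± 15.6 CPM (SD, n = 6) in young, 107 ± 8.70 CPM (n = 5) in middle-aged and 105 ± 4.66 CPM (n = 6) in untreated old bladders, with overlapping ranges. Its log2 fold change from middle-aged to untreated old bladders was -0.02 (SE 0.05, 95% interval -0.13 to 0.09, edgeR adjusted p = 0.812), and from young to middle-aged bladders -0.12 (interval -0.30 to 0.07, edgeR adjusted p = 0.429). The interval of the late step corresponds to a fold of 0.916 to 1.06. Nr3c2 was lowest in young bladders, at 24.5 ± 5.77 CPM (n = 6), and stood at 32.9 ± 3.07 CPM (n = 5) in middle-aged and 31.5 ± 2.95 CPM (n = 6) in untreated old ones. The early difference of 0.44 (SE 0.15) had an adjusted p of 0.0766 by edgeR, and young replicate 1 was the lowest of all bladders at 14.5 CPM. With all 6 groups in 1 fit the same step had an adjusted p of 0.0152, and DESeq2 gave 0.0379. Exons of Nr3c2 overlap Gm10649 on the other strand, and the strand setting of the counting is not given in the sources used here, so reads of that neighbor may be included.

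Hsd11b1, the hormone-activating enzyme gene, moved in both age steps. The 5 middle-aged bladders had 36.4, 31.2, 36.4, 35.5 and 34.0 CPM, the young ones 35.0 to 47.4 CPM with a median of 41.1, and the untreated old ones 40.7 to 51.3 CPM with a median of 44.7. Every untreated old bladder was thus above every middle-aged one, while the young bladders overlapped both groups. Hsd11b1 fell by 0.23 (SE 0.07, edgeR adjusted p = 0.0463) on the log2 scale from young to middle-aged bladders and rose by 0.38 (SE 0.06, edgeR adjusted p = 0.000595, 1.30-fold) from middle-aged to untreated old ones. The early fall lay at the edge of the threshold and was lost without any 1 of 9 of the 11 bladders (adjusted p up to 0.117). From young to untreated old bladders, a comparison added after the values were seen, the difference was 0.13 (interval -0.02 to 0.28, edgeR adjusted p = 0.183).

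Among the induced genes, Fkbp5 changed most clearly. Untreated old bladders had 67.7 to 90.9 CPM with a median of 77.3, the 5 middle-aged bladders 31.4, 34.3, 37.3, 29.1 and 36.0 CPM, and the young bladders 24.9 to 37.0 CPM with a median of 34.6. The 2 younger groups overlapped fully and the old group stood apart from both. The log2 fold change was 1.21 (SE 0.08, interval 1.04 to 1.38, edgeR adjusted p = 2.66e-06) from middle-aged to untreated old bladders, and 0.04 (SE 0.10, edgeR adjusted p = 0.853) from young to middle-aged bladders. Every untreated old bladder was above every middle-aged one for 8.49% of the genes tested, Fkbp5, Zbtb16 and Hsd11b1 among them. Over all 32 bladders, every one of the 21 old bladders was above every one of the 11 younger ones for 121 of 18093 genes, or 0.669%, and Fkbp5 was the only member and no other gene of the list of glucocorticoid-induced genes was among them.

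Zbtb16 encodes PLZF, a zinc finger repressor strongly induced by glucocorticoids in many cell types, and it rose with a wider spread. The untreated old bladders had 90.5, 59.9, 49.8, 105, 109.9 and 52.6 CPM, the middle-aged bladders 24.0, 42.5, 36.3, 33.3 and 38.0 CPM, and the young ones 28.5 to 36.8 CPM with a median of 30.9. The old values fell into a lower group near 50 to 60 CPM and a higher group of 90.5 CPM and above, and all were above the middle-aged range. The log2 fold change was 1.16 (SE 0.23, interval 0.67 to 1.65, edgeR adjusted p = 0.00277), a 2.23-fold rise, after 0.13 (SE 0.12, edgeR adjusted p = 0.546) in the early step. Against young bladders, 2 of the 8 members were called in untreated old bladders, Fkbp5 at 1.24 (SE 0.09, edgeR adjusted p = 2.04e-06) and Zbtb16 at 1.28 (SE 0.20, edgeR adjusted p = 0.000364), where 25.1% of genes were called. This comparison was also added after the values were seen.

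Tsc22d3, Klf9 and Sgk1, which encodes a kinase that regulates sodium transport and is induced by both corticosteroid hormones, shared a lowest mean in the middle-aged bladders. The middle-aged bladders had 96.1, 62.4, 58.7, 60.4 and 80.9 CPM of Tsc22d3, against 63.6 to 118 CPM (median 94.5) in young and 85.4 to 119.9 CPM (median 93.9) in untreated old ones. Young and untreated old bladders overlapped nearly fully, and only middle-aged replicate 1 reached into the old range. The log2 fold change of Tsc22d3 was -0.35 (SE 0.16, edgeR adjusted p = 0.173) from young to middle-aged and 0.47 (SE 0.14, edgeR adjusted p = 0.0228) from middle-aged to untreated old bladders. Klf9 had 186 ± 26.3 CPM (n = 6), 160.0 ± 26.1 CPM (n = 5) and 206 ± 31.6 CPM (n = 6) in young, middle-aged and untreated old bladders, with overlapping ranges, and the late step of 0.37 (SE 0.12) had an edgeR adjusted p of 0.0452. Sgk1 had 37.3 ± 10.0, 28.6 ± 6.27 and 35.7 ± 5.19 CPM in the same order, and its late step of 0.32 (SE 0.13, edgeR adjusted p = 0.0980) was not called. The calls of Tsc22d3 and Klf9 were the weak ones: that of Klf9 was lost without any 1 of 10 of the 11 bladders (adjusted p up to 0.102), and that of Tsc22d3 without middle-aged replicate 2, 3 or 4 (0.0570 to 0.0661) and with all 6 groups in 1 fit (0.0921).

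Counting Hsd11b1, 4 of the 8 members had the lowest of their 6 group means in the middle-aged bladders, as did 19.3% of 18093 genes. Between untreated old and young bladders none of these 4 was called, with log2 fold changes of -0.06 (Sgk1) to 0.15 (Klf9). Apart from the 2 receptor genes, the group means of the members thus took 2 courses over age. Fkbp5 and Zbtb16 were called higher against both younger groups, and the other 4 had their lowest mean at 10 months. For these 4 the course is one of means, since from young to middle-aged bladders only Hsd11b1 was called. Tsc22d3 (edgeR adjusted p = 0.173), Sgk1 (-0.37, edgeR adjusted p = 0.199) and Klf9 (-0.21, edgeR adjusted p = 0.275) were not. Both steps rest on the same middle-aged bladders. Of the receptor genes, Nr3c2 had its lowest mean in young bladders and its highest in middle-aged ones, and Nr3c1 had its highest in young ones.

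Markers of immune cells moved with the rise of Fkbp5 and Zbtb16. From middle-aged to untreated old bladders all 6 markers of B and plasma cells rose, with a median log2 fold change of 4.50, and their summed level was 2698 to 17620 CPM in untreated old bladders against 57.1 to 428 CPM in middle-aged ones and at most 61.1 CPM in young ones. All 5 T cell markers and 3 of 5 macrophage markers were also higher, and none of these markers was at 0 in every bladder of a group. From young to middle-aged bladders, 5 of the 6 B and plasma cell markers rose, with a median log2 fold change of 2.09. Among old bladders, vehicle-treated replicate 1 had the lowest sum of these markers, 200 CPM, with 85.2 CPM of Fkbp5 and 125 CPM of Zbtb16, the latter the highest of all 32. That sum lay within the middle-aged range of 57.1 to 428 CPM. The summed T cell markers of this bladder, 10.3 CPM, also lay within the middle-aged range, 8.57 to 11.5 CPM. Its level of the single marker Cd79a, a B cell receptor component, was likewise 10.3 CPM, above the middle-aged bladders, which reached 1.95 CPM. The 8 adipocyte markers had a median log2 fold change of 0.66 from middle-aged to untreated old bladders, with 1 called, which was lower, and a summed level of 497 to 711 CPM in untreated old and 510 to 586 CPM in middle-aged bladders. The part of these cells in the age differences was not tested.

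**Figure D2:**
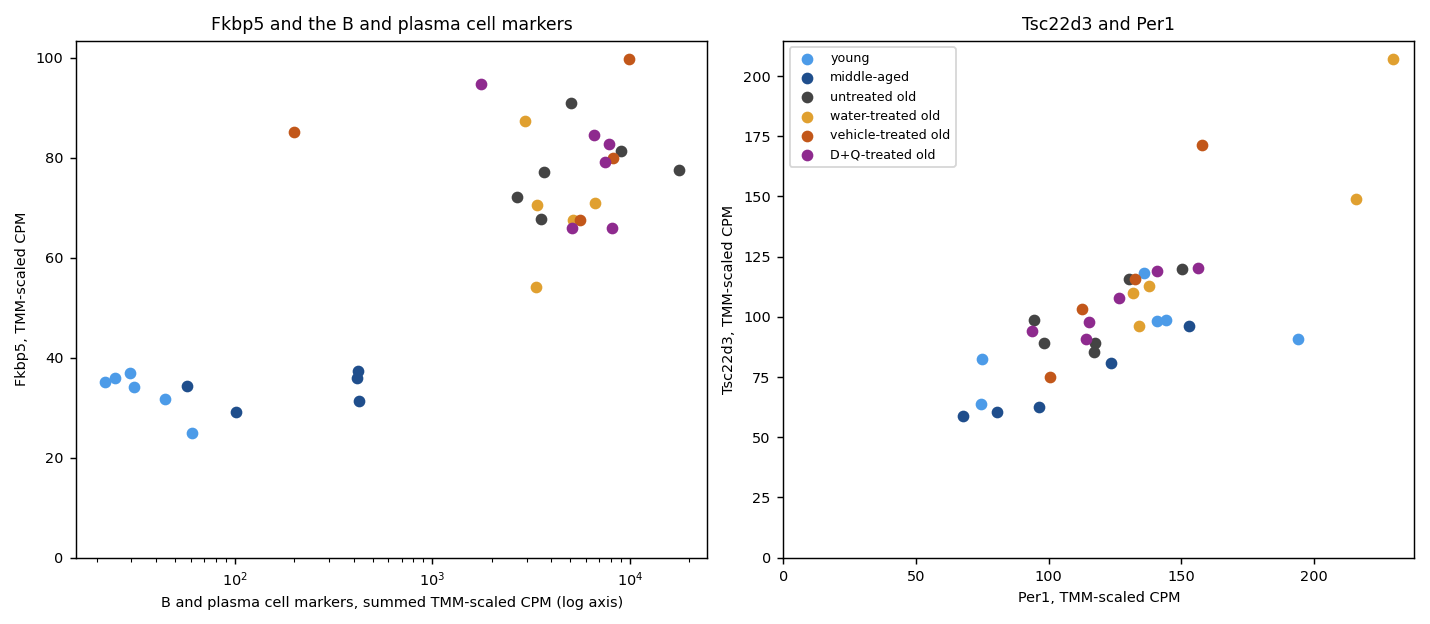
Left, Fkbp5 in TMM-scaled CPM (y axis) against the summed CPM of 6 B and plasma cell markers (x axis, log scale). Right, Tsc22d3 (y axis) against Per1 (x axis), both in TMM-scaled CPM. Each point is 1 of 32 bladders, colored by group. The vehicle-treated bladder at 200 CPM of markers has 85.2 CPM of Fkbp5, and water-treated replicate 4 is the top right point of the right panel at 207 CPM of Tsc22d3 and 229.7 CPM of Per1.

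The gavaged groups were next set against untreated old bladders of the same age, 26 months. Of these groups, only the water-treated one had gavage without the solvent or the drugs. None of the 8 members was called in water-treated, vehicle-treated or D+Q-treated against untreated old bladders, nor in the 3 gavaged groups together. The genes called overall were 1% of 17250 after water, and 0% after vehicle (17440 genes), D+Q (17037 genes) and for all gavaged bladders (17893 genes). DESeq2 called 703, 132, 185 and 166 genes in these comparisons and also none of the members. At an unadjusted edgeR p under 0.05 stood 3 of 8 members after water, against 16% of genes, and 0 of 8 in each of the others, where 1464, 2200 and 2253 genes did.

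The receptor genes are given first. Over all gavaged bladders together, the log2 fold change of Nr3c1 against untreated old bladders was -0.01 (interval -0.13 to 0.11) and that of Nr3c2 was -0.06 (interval -0.21 to 0.09), with edgeR adjusted p of 0.964 and 0.755. Nr3c1 was also the least variable of the members in water-treated bladders, at 102 to 109.6 CPM, and the most spread among gavaged groups after D+Q, at 79.7 to 121 CPM. No gavaged group left the range of the young bladders and untreated old ones together, apart from D+Q-treated replicates 3 and 6 at 92.5 and 79.7 CPM.

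Fkbp5, the member with the clearest age step, was not called after any gavage. Water-treated bladders had 70.9, 67.5, 70.6, 87.5 and 54.2 CPM, vehicle-treated bladders 85.2, 67.5, 99.7 and 80.0 CPM, and D+Q-treated bladders 66.0 to 94.7 CPM with a median of 80.9. These ranges all overlapped that of the untreated old bladders, 67.7 to 90.9 CPM. The log2 fold changes were -0.15 (SE 0.10) after water, 0.10 (SE 0.10) after vehicle and 0.02 (SE 0.09) after D+Q, with edgeR adjusted p of 0.524, 0.803 and 0.944. For all gavaged bladders the difference was -0.01 with an interval of -0.20 to 0.19, that is, a fold of 0.871 to 1.14, whereas the interval of the late age step began at a fold of 2.05. Against middle-aged bladders, Fkbp5 was called in each gavaged group, at 1.06 (SE 0.11, edgeR adjusted p = 0.000437) after water, 1.31 (SE 0.11, edgeR adjusted p = 0.000877) after vehicle and 1.22 (SE 0.10, edgeR adjusted p = 2.15e-05) after D+Q. Of the 8 members, 3, 3 and 4 were called in those comparisons, where 13.3%, 4.54% and 12.1% of genes were. These 3 comparisons were added after the values were seen and share the 5 middle-aged bladders with each other and with the late age step.

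Zbtb16 was the member with the lowest fitted value after water. Water-treated bladders had 38.5, 31.97, 65.8, 55.3 and 47.7 CPM, vehicle-treated bladders 125, 67.0, 82.6 and 66.2 CPM, and D+Q-treated bladders 40.8 to 122 CPM with a median of 82.5. The water-treated bladders lay below all vehicle-treated ones, by a narrow gap of 65.8 against 66.2 CPM, and overlapped the untreated old range only in part. Against untreated old bladders the difference was -0.70 (SE 0.25, interval -1.24 to -0.16, unadjusted p = 0.0150), and it did not pass after adjustment (edgeR adjusted p = 0.195). It was 0.13 (interval -0.46 to 0.72) after vehicle and 0.04 (interval -0.53 to 0.61) after D+Q. Hsd11b1 also had an unadjusted p under 0.05 after water, with 37.1, 42.3, 40.4, 40.1 and 37.7 CPM and a difference of -0.19 (SE 0.06, unadjusted p = 0.00726, edgeR adjusted p = 0.150). Beside these values, the median log2 fold change of the 8 adipocyte markers was -1.13 after water and -0.67 for all gavaged bladders, with none called, and their summed level of 519 to 621 CPM lay within that of the untreated old bladders. The part of adipocyte RNA in the values of Zbtb16 and Hsd11b1 was not tested.

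Tsc22d3 had high values in single gavaged bladders. Water-treated bladders had 110.0, 113, 96.2, 207 and 149 CPM, vehicle-treated bladders 103, 75.2, 171 and 116 CPM, and D+Q-treated bladders 90.7 to 120.5 CPM with a median of 103. Water-treated replicates 4 and 5 and vehicle-treated replicate 3 stood above the untreated old range of 85.4 to 119.9 CPM by a wide margin, and the other bladders of those groups lay within or near it. The log2 fold change was 0.44 (SE 0.18, unadjusted p = 0.0281, edgeR adjusted p = 0.250) after water, 0.23 (SE 0.19, edgeR adjusted p = 0.745) after vehicle and 0.08 (SE 0.10, edgeR adjusted p = 0.749) after D+Q. Without water-treated replicate 4 the first became 0.24, and without vehicle-treated replicate 3 the second became -0.02. The same 2 bladders were the highest of their groups for Klf9, at 227 and 258 CPM, and for Fkbp5, at 87.5 and 99.7 CPM.

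Klf9 and Sgk1 showed no difference past the test after gavage. Klf9 had 195 ± 18.1 CPM (n = 5) after water, 192 ± 43.5 CPM (n = 4) after vehicle and 191 ± 15.9 CPM (n = 6) after D+Q, against 206 ± 31.6 CPM (n = 6) in untreated old bladders. Sgk1 had 33.6 ± 4.52, 35.3 ± 6.44 and 35.8 ± 6.67 CPM in the same groups against 35.7 ± 5.19 CPM. Over all gavaged bladders the intervals were -0.28 to 0.10 for Klf9 and -0.24 to 0.19 for Sgk1 on the log2 scale. All these ranges overlapped.

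**Figure D3:**
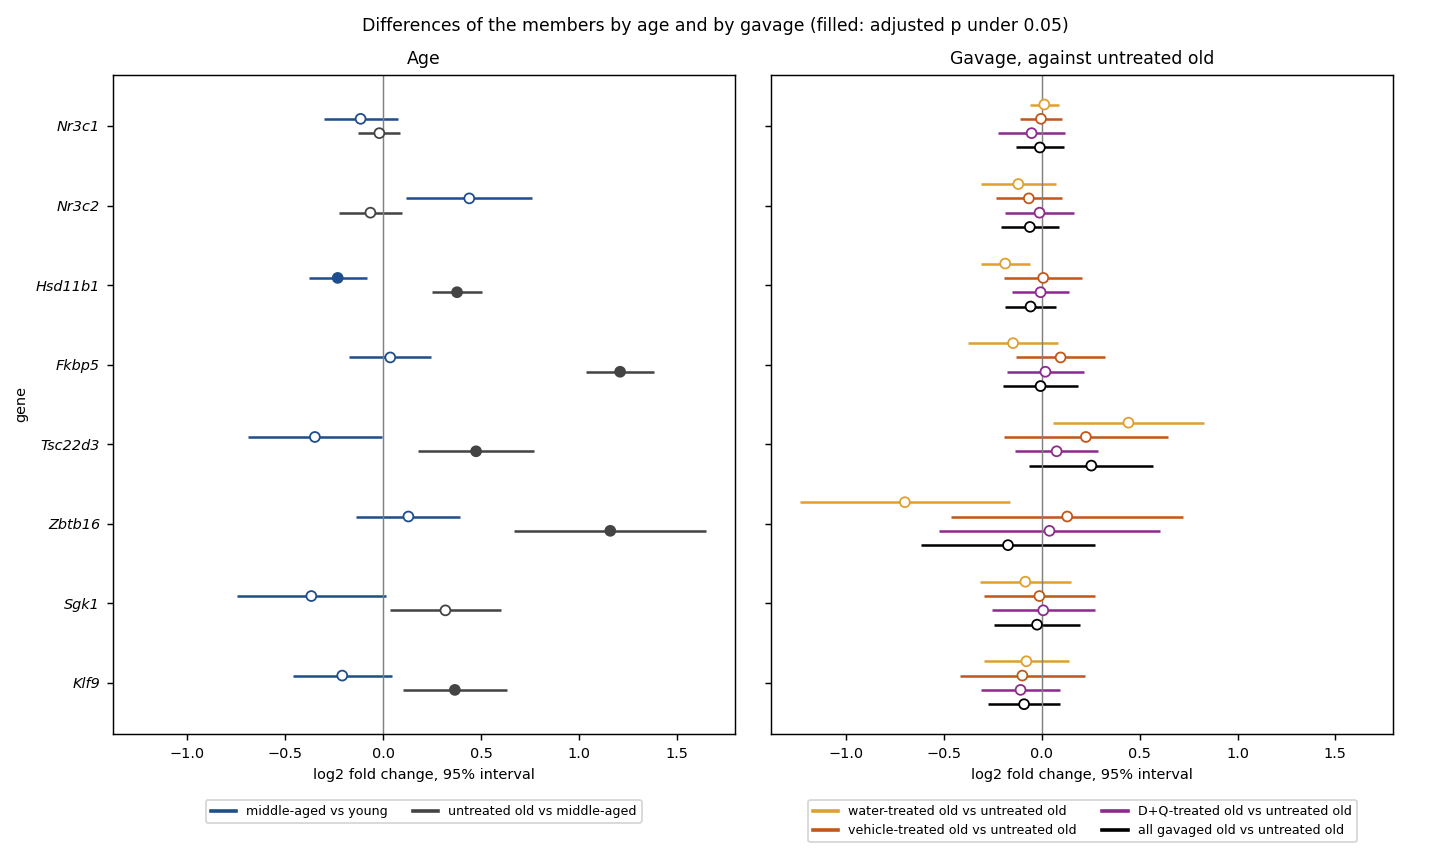
Log2 fold changes (x axis) of the 8 genes (y axis) with 95% intervals from edgeR's quasi-likelihood fits. Left, 2 age steps. Right, each gavaged group and all gavaged bladders against untreated old bladders. Filled points have an adjusted p under 0.05. All points of the right panel are open, and the interval of Fkbp5 for all gavaged bladders, -0.20 to 0.19, lies far from its late age step of 1.21.

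The gavaged groups were also compared with each other. None of the 8 members, and 0% of all genes (17294, 17267 and 17161 tested), was called between vehicle and water, D+Q and vehicle, or D+Q and water. At an unadjusted edgeR p under 0.05 stood 1, 0 and 3 of the 8 members, against 322, 722 and 1342 genes (1.86%, 4.18% and 7.82%). DESeq2 called 0, 11 and 69 genes. Zbtb16 had the smallest unadjusted p of the members in 2 of these. Its difference was 0.83 (SE 0.23, unadjusted p = 0.00526, edgeR adjusted p = 0.99990) between vehicle and water. The lowest vehicle-treated bladder had 66.2 CPM and the highest water-treated one 65.8 CPM, and the share of genes separated likewise was not computed. The difference of Zbtb16 was 0.74 (SE 0.25, unadjusted p = 0.0123, edgeR adjusted p = 0.530) between D+Q and water. In that comparison Hsd11b1 differed by 0.18 (unadjusted p = 0.0180, edgeR adjusted p = 0.559) and Tsc22d3 by -0.37 (unadjusted p = 0.0498, edgeR adjusted p = 0.638). Between D+Q and vehicle, which share the solvent and the gavage, the differences of the 8 genes lay between -0.15 (Tsc22d3) and 0.05 (Nr3c2), and the widest interval, that of Zbtb16, ran from -0.69 to 0.51.

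Other genes of the pathway were taken from lists that hold no member. Of 26 other glucocorticoid-induced genes, all tested, 8 rose and 3 fell from middle-aged to untreated old bladders, with a median log2 fold change of 0.09, where 24% of all genes were called and 13% were called higher. The 3 with the smallest p were Bcl6, a transcriptional repressor, at 0.41 (SE 0.03, edgeR adjusted p = 7.16e-06), Rgs2, a brake on G protein signaling, which fell by 1.09 (SE 0.14, edgeR adjusted p = 0.000121), and Hif3a, a hypoxia factor, at 0.71 (SE 0.14, edgeR adjusted p = 0.00332). From young to middle-aged bladders 6 of the 26 fell and none rose, with a median of -0.15, where 5.85% of all genes were called lower. The lowest p there belonged to Dusp1, a phosphatase that damps stress kinases, which fell by 1.49 (SE 0.29, edgeR adjusted p = 0.00816), to Angptl4, an inhibitor of lipoprotein lipase, which fell by 1.42 (SE 0.33, edgeR adjusted p = 0.0180), and to Nfkbia, which restrains NF-κB and fell by 0.29 (SE 0.08, edgeR adjusted p = 0.0283). Of the 26 genes, 13 had their lowest group mean in the middle-aged bladders, as did 19.3% of all genes. The counts of 8 and 3 became 5 and 1 with all 6 groups in 1 fit, and 0 of the 26 was called in any gavage comparison. At an unadjusted edgeR p under 0.05 after water, 5 were higher and 3 lower, against 16% of all genes. After vehicle 4 were higher and 0 lower (8.39% of all genes), and after D+Q 0 and 2 (12.9%). Their summed level was 2643 to 2887 CPM after water and 2728 to 2753 CPM after vehicle. It was 2436 to 2938 CPM after D+Q and 2443 to 2612 CPM in untreated old bladders. These sums were not tested.

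**Figure D4:**
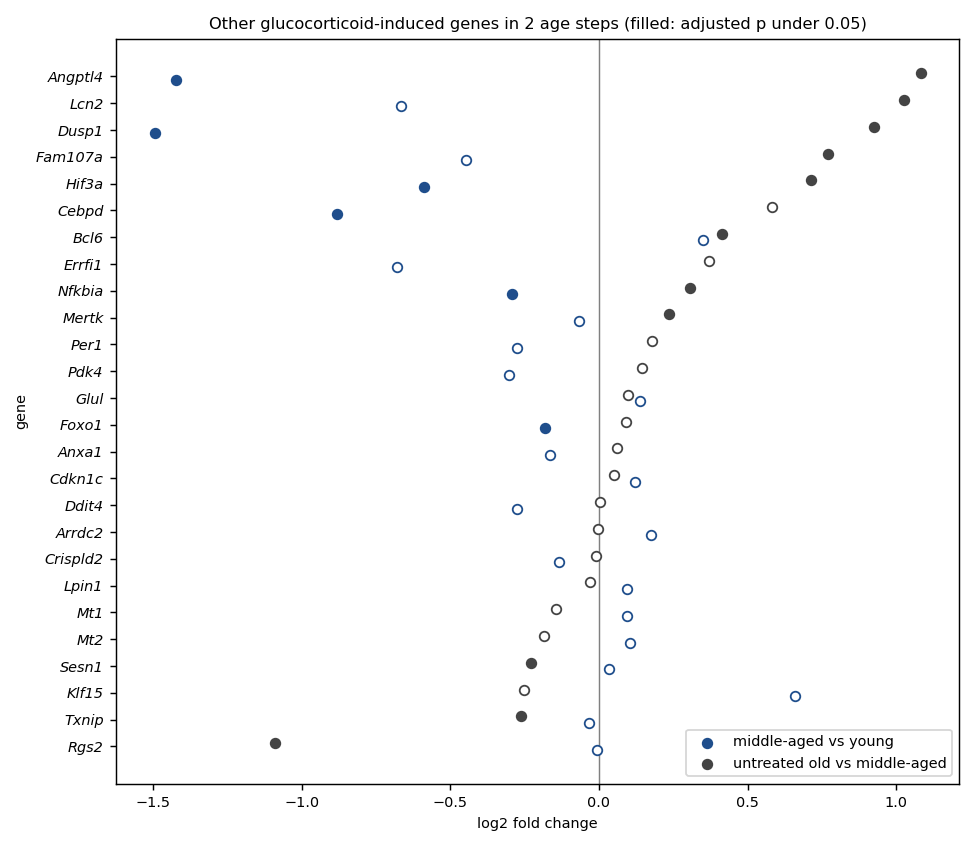
Log2 fold changes (x axis) of 26 other glucocorticoid-induced genes (y axis), ordered by the late age step. Blue, middle-aged against young. Gray, untreated old against middle-aged. Filled points have an edgeR adjusted p under 0.05. In the blue series 6 points are filled, all left of 0, and in the gray series 8 are filled on the right and 3 on the left, with Rgs2 the lowest at -1.09.

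Few partner genes of the receptor were called in the early and late age steps. Over all genes, 24% were called either way in the late step and 10.8% in the early step. Of 15 chaperone and coregulator genes, 1 was called between untreated old and middle-aged bladders, Hsp90aa1, an inducible heat shock protein 90 gene, at 0.24 (SE 0.06, edgeR adjusted p = 0.0144), and none was called in the early step. Between untreated old and young bladders, compared after the values were seen, 3 of the 15 rose and 1 fell. In that comparison 25.1% of all genes were called. None of 7 heat shock genes was called at either step, and of 9 immediate early genes 1 was, Nr4a1, at 1.20 (SE 0.37, edgeR adjusted p = 0.0316) in the late step. Among 13 genes of steroid handling and mineralocorticoid response, 3 rose and 1 fell in the late step. In that step 13% of all genes were called higher. The steroid exporter gene Abcb1b rose by 0.90 (SE 0.15, edgeR adjusted p = 0.000882) and its relative Abcb1a by 0.25 (SE 0.05, edgeR adjusted p = 0.00362), and Srd5a1, a steroid reductase, fell by 0.22 (SE 0.05, edgeR adjusted p = 0.00547). In the early step Abcb1a rose by 0.32 (SE 0.06, edgeR adjusted p = 0.00488), Srd5a1 by 0.19 (SE 0.06, edgeR adjusted p = 0.0451), and Cyp7b1, an oxysterol hydroxylase, fell by 0.45 (SE 0.10, edgeR adjusted p = 0.0150).

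Inflammatory genes that glucocorticoids are known to repress rose together with the induced genes Fkbp5 and Zbtb16 in the late step. Of 16 on the list 11 were tested, and 9 rose from middle-aged to untreated old bladders, with a median log2 fold change of 1.47. Over all genes 24% were called in that step and 13% were called higher. Ptgs2, the inducible cyclooxygenase gene, rose by 1.38 (SE 0.15, edgeR adjusted p = 3.57e-05), Vcam1, a leukocyte adhesion gene, by 0.72 (SE 0.08, edgeR adjusted p = 7.10e-05) and Mmp3, a matrix metalloproteinase gene, by 2.11 (SE 0.28, edgeR adjusted p = 0.000190). In the early step, where 10.8% of all genes were called, 1 of 10 rose, the nitric oxide synthase gene Nos2 at 0.65 (SE 0.16, edgeR adjusted p = 0.0244). The chemokine gene Ccl2 was the 1 that fell, by 1.09 (SE 0.31, edgeR adjusted p = 0.0398). For all gavaged against untreated old bladders none of 12 was called, with log2 values of -1.11 to -0.01. Immune cell markers moved with this list as with Fkbp5 and Zbtb16, and their part was not tested.

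Clock genes, several of which glucocorticoids can reset, were called 3 times in 14 in the late step, where 24% of all genes were: Npas2 fell by 0.49 (SE 0.11, edgeR adjusted p = 0.00605), Arntl fell by 0.61 (SE 0.18, edgeR adjusted p = 0.0252), and Per2 rose by 0.53 (SE 0.13, edgeR adjusted p = 0.0104). In the early step and in the gavage comparisons none of the 14 was called. Without adjustment, 9 of the 14 had p under 0.05 for all gavaged against untreated old bladders, 7 higher and 2 lower, where 12.6% of all genes did. The smallest adjusted p among them was 0.156.

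The members were then compared across bladders. For each member, the 3 genes with the highest Pearson r of log2(CPM + 0.1) over the 32 bladders were taken from 18092 others, as a description with no test, since they are the top of a ranking. The closest to Fkbp5 were the B cell genes Pou2af1 (r = 0.921, Spearman's rho = 0.725), Mzb1 (r = 0.904, rho = 0.766) and Cd79a (r = 0.899, rho = 0.709). These values rest on the step between younger and old bladders: after each group's mean was removed, r was 0.288, 0.205 and 0.170. The closest to Zbtb16 was Fkbp5 itself (r = 0.820, rho = 0.852), with r = 0.486 within groups, followed by Fmo2 and Fcna with r of 0.808 and 0.780.

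Tsc22d3 was closest to Per1, a clock gene that glucocorticoids induce directly, with r = 0.811 and rho = 0.755, and here the likeness held within groups, at r = 0.784 and rho = 0.835, and at 0.782 without the 2 bladders farthest from the median of Tsc22d3. The bladders with the highest Tsc22d3 after water, replicates 4 and 5, had 229.7 and 216 CPM of Per1, the 2 highest values of all, and the other water-treated bladders had 132 to 138 CPM. Klf13 and Cyth1 followed for Tsc22d3, with r of 0.768 and 0.721. Sgk1 was closest to Sik1, Klf2 and Cebpd, with r of 0.786, 0.769 and 0.760 and within groups 0.759, 0.737 and 0.743.

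For the other members the likeness also held within groups. Nr3c1 was closest to Lpgat1, Cul5 and Pds5b (r = 0.832, 0.814 and 0.806), Nr3c2 to Phactr1, Sv2b and 9530026P05Rik (r = 0.867, 0.863 and 0.836), Hsd11b1 to Dpep1, Ccl9 and Dusp2 (r = 0.806, 0.759 and 0.757), and Klf9 to Il6ra, Stk17b and Man1a (r = 0.694, 0.690 and 0.690). The lowest of these 12 was 0.504 within groups, for Dusp2. All 12 were lower without the 2 bladders farthest from the member's median, with Dusp2 again the lowest at 0.381. All points share library depth and the cell makeup of the same bladder.

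Among the 28 pairs of members, r within groups ran from -0.582 to 0.527 with a median of 0.0472, so the 8 genes did not move as a block from bladder to bladder. Tsc22d3 went with Nr3c2 (0.527), Sgk1 (0.510) and Klf9 (0.464), and Fkbp5 with Zbtb16 (0.486). Hsd11b1 and Zbtb16 went opposite ways (-0.582), although both rose from middle-aged to untreated old bladders. Without the 2 bladders farthest from the median of the first-named gene, r was 0.522 for Tsc22d3 with Sgk1 and 0.572 for Fkbp5 with Zbtb16. It was 0.459 for Nr3c2 with Tsc22d3 and 0.283 for Tsc22d3 with Klf9. With the 2 bladders farthest for Zbtb16 left out instead, r of Fkbp5 with Zbtb16 was 0.438.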

How the data were processed

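Total RNA of 32 single bladders was sequenced with the Illumina TruSeq Stranded Total RNA kit. The authors deposited whole-number read counts per gene, made by alignment with STAR 2.7.3 and counting with featureCounts of Subread per the submitters' processing notes (the strand setting is not given in the sources used here), beside each gene's summed exon length. TPM were computed here from those counts and lengths, and a second deposited table of normalized values was not used. Of the 32285 genes, 32158 carry a symbol.

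Counts were tested as deposited with edgeR 4.0.16 in R 4.3.3 (filterByExpr, TMM, quasi-likelihood test) in fits of the 2 groups compared, or of the 4 old groups for all gavaged bladders (the mean of the 3 gavaged groups), with Benjamini-Hochberg adjustment over all genes tested and a threshold of 0.05. The script was tested on simulated counts. Alternatives were DESeq2 1.42.0, other scalings, filters and fits, a replicate block, and each bladder left out. Comparisons of untreated old with young, and of gavaged with middle-aged bladders, were added after seeing the data. The members and lists were chosen with earlier results of these data known.

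Named genes were all members, the up to 3 genes of each pathway list with the smallest p among those called in the 2 age steps and for all gavaged bladders, and the 3 genes most like each member. Gm10649, Hsd11b2 and Per1 were named beside member results after their values were seen. Intervals are 95% intervals of the fits, and the floor of 3 counts covers counting error only. Summed counts were 15088372 to 52650259 per bladder. Promoter sequences came from RefSeq (GRCm38.p6).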

Additional observations from a re-analysis of the deposited data

Results flagged for a closer look

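Among 48 groups of member levels (8 genes in 6 groups of 4 to 6 bladders), 2 had a bladder far from the others of its group by Dixon's ratio of the gap to the range, and chance flags about 1 in 20 groups. Both concern Klf9 in gavaged old bladders. Water-treated replicate 4 had 227 CPM, while the nearest of its group had 189.8 CPM, with a ratio of 0.865 against a critical value of 0.71. Vehicle-treated replicate 3 had 258 CPM, while the nearest of its group had 174 CPM, with a ratio of 0.920 against 0.829. The same bladders had the highest Tsc22d3 of their groups, 207 and 171 CPM, and Per1 stood at 229.7 and 158 CPM in them. Without them, the log2 fold change of Klf9 against untreated old bladders was -0.13 after water and -0.27 after vehicle, and it was not called with or without them. The time of day and the cause of these levels were not given or tested.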

How the results depend on the processing

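Under DESeq2, RLE and upper-quartile scaling, other filters, all 6 groups in 1 fit and the replicate block, 576 of 596 values kept their direction and their side of the threshold, and with 1 bladder left out 880 of 984 did. In all 7 gavage comparisons the number of members called was 0 under every alternative run. From middle-aged to untreated old bladders it was 4 to 5 under the other settings and 3 to 5 with 1 bladder left out (3 without middle-aged replicate 2, 3 or 4), Fkbp5, Zbtb16 and Hsd11b1 being called throughout. From young to middle-aged bladders it was 2 by DESeq2 and in the fit of all 6 groups, 0 with upper-quartile scaling, with every gene of at least 1 count and with the replicate block, and 0 to 2 with 1 bladder left out (2 without young replicate 4 or 5). From young to untreated old bladders it was 2 to 3, and 2 to 4 with 1 bladder left out (4 without young replicate 4). The causes were not tested.

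Replicate numbers did not pair the bladders: over 73 pairs of bladders with the same number, the correlation of deviations from group means ran from -0.302 to 0.178 with a median of 0.00183. The column names of the count table carry other numbers than the titles for 6 bladders, and over the 72 pairs that share those numbers it ran from -0.296 to 0.219 with a median of 0.0105. The block used the numbers of the titles. With the replicate block, 1 in place of 3 members was called between vehicle-treated old and middle-aged bladders, and the small log2 differences of Klf9 after vehicle (0.012), Sgk1 after D+Q (-0.00031) and Fkbp5 for all gavaged bladders (0.0100) changed sign.

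Log2 differences near 0 also changed sign with 1 bladder left out. Against untreated old bladders, the ranges after vehicle were -0.052 to 0.032 for Nr3c1, -0.069 to 0.094 for Hsd11b1, -0.0025 to 0.18 for Fkbp5, -0.022 to 0.39 for Tsc22d3, -0.11 to 0.25 for Zbtb16 and -0.12 to 0.086 for Sgk1. After D+Q they were -0.11 to 0.012 for Nr3c1, -0.052 to 0.032 for Nr3c2, -0.034 to 0.040 for Hsd11b1, -0.039 to 0.069 for Fkbp5, -0.12 to 0.17 for Zbtb16 and -0.070 to 0.086 for Sgk1. For all gavaged bladders they were -0.035 to 0.0069 for Nr3c1, -0.050 to 0.044 for Fkbp5 and -0.077 to 0.047 for Sgk1. With age they were -0.051 to 0.026 for Nr3c1 from middle-aged to untreated old, -0.036 to 0.086 for Fkbp5 from young to middle-aged and -0.14 to 0.064 for Sgk1 from young to untreated old bladders. For Nr3c1 against middle-aged bladders they were -0.034 to 0.037 after water and -0.074 to 0.023 after vehicle. Groups held 4 to 6 bladders, and each member had 373 or more counts in every bladder. The parts of group size, spread between bladders and depth in the width of the intervals were not tested.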
